A study of Mus musculus with 56 samples.

Results

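Matrix metalloproteinases (MMPs) and the tissue inhibitors of metalloproteinases (TIMPs) were examined in whole adrenal glands of mice that lose Znrf3 in steroidogenic cells. The 10 genes were chosen by name: Mmp2, Mmp3, Mmp8, Mmp9, Mmp12, Mmp13 and Mmp14 as proteases and Timp1, Timp2 and Timp3 as inhibitors. They are 10 of the 55487 gene identifiers in the count tables of females and males and 10 of the 55414 in the table of the surgery series. Bulk poly(A) RNA sequencing gave 56 libraries of C57BL/6J glands in 14 groups of 4. Its aim was to compare transcriptomes around the change from hyperplasia to regression of the gland. The conditional knockout (cKO) carried SF1-Cre and 2 floxed Znrf3 alleles (Znrf3 Fx/Fx), and the control was SF1-Cre negative. Znrf3 is a membrane ubiquitin ligase that lowers Wnt receptor levels, and the SF1 driver is active in the steroidogenic lineage of the adrenal cortex and gonads. Glands of cKO and control females were collected at the ages of 6, 9 and 12 weeks, and those of cKO and control males at the ages of 4, 6 and 9 weeks. The surgery series held 9-week male cKO mice that were castrated or sham-operated at 4 weeks, with no control genotype. An eYFP or mTmG reporter allele was also given for 3 of the 4 castrated and 3 of the 4 sham libraries. The study's design text states that each female and male group holds samples of independent mice. All 4 sham libraries carry the same replicate number in their labels, with 3 different reporter genotypes among them, so whether each came from its own mouse is not certain and their spread may be partly technical.

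MMPs are zinc-dependent proteases that cut extracellular matrix and many cell-surface and soluble proteins. Most are secreted as inactive proenzymes, and their activity depends on removal of the propeptide and on TIMPs, which bind the active site. Collagenases open fibrillar collagen, gelatinases degrade denatured collagen and basement membrane, and the macrophage elastase degrades elastin. Messenger RNA levels, the quantity measured here, do not report proenzyme activation or inhibitor binding.

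Of the 7 proteases, Mmp13, Mmp12, Mmp3 and Mmp8 lay within 296 kb of one another on the forward strand of chromosome 9 (GRCm38, chr9:7272514-7568485). Outside it lay Mmp2 (chr8:92827291-92853420), Mmp9 (chr2:164940780-164955850), Mmp14 (chr14:54431612-54445364), Timp1 (chrX:20870166-20874735) and Timp3 (chr10:86300372-86349506), on the forward strand, and Timp2 (chr11:118301069-118355740), on the reverse strand. Promoters of this cluster are shown because Mmp12 and Mmp13 are among its genes, and each line gives, 5′ to 3′, the 250 bases before a RefSeq transcription start (GRCm38.p6, forward strand). Capitals mark an AP-1 motif (TGANTCA) or a PU.1 core (GAGGAA, or TTCCTC where it lies on the reverse strand). The windows were chr9:7272264-7272513 for Mmp13, chr9:7344147-7344396 and chr9:7347124-7347373 for the upstream and downstream starts of Mmp12, chr9:7445572-7445821 for Mmp3 and chr9:7558179-7558428 for Mmp8.
Mmp13: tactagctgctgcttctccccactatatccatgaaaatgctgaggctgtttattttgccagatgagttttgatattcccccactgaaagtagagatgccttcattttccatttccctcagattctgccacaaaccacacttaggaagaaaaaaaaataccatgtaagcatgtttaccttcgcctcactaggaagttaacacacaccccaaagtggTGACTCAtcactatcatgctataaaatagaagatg
Mmp12 upstream start: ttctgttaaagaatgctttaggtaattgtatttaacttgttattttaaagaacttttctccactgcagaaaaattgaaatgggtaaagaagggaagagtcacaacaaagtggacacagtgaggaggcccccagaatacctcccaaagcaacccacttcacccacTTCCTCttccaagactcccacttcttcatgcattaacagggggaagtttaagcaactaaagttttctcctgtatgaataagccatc
Mmp12 downstream start: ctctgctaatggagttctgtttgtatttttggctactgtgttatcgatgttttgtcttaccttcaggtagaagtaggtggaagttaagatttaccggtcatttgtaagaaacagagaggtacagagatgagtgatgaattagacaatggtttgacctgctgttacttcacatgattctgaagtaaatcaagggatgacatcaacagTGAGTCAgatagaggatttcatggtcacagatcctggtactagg
Mmp3: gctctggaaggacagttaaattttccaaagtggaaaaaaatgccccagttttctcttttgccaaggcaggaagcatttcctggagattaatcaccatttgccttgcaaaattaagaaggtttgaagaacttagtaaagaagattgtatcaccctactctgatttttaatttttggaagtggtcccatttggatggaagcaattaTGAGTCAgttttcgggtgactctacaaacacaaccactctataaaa
Mmp8: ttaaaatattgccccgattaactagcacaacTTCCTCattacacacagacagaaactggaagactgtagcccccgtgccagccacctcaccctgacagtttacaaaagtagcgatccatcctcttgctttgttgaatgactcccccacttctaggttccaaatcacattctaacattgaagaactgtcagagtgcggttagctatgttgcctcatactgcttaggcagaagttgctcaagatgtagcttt
The AP-1 motif began 35 bases before the start of Mmp13, 44 bases before the downstream start of Mmp12 and 46 bases before the start of Mmp3. It was present in 7.81% of 32851 mouse promoter windows of 300 bases (250 before and 50 after the start), searched on both strands. The PU.1 core was present in the window of Mmp8 and in the upstream window of Mmp12, and in 28.3% of all windows. The full palindromic androgen response element, searched because of the castration arm, was in no member's window and in 0.00913% of all windows. The windows of Mmp14, Timp1, Timp2 and Timp3 held none of these motifs. Windows of Mmp2 and Mmp9 were not used here.

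Library totals were 35694264 to 51604620 counts in females, 12431963 to 35531016 in males and 25145519 to 42411447 in the surgery series. The summed level of 8 adrenal cortex markers was high in every group, at 26830 CPM (counts scaled to a common library size) or more in each library. Gene-level Znrf3 was higher in cKO glands, at 40.4 to 76.7 CPM as group means, against 28.9 to 36.5 CPM in control glands. A gene-level count includes exons outside the deleted segment, so this does not check the deletion. Sham replicate 1 stood apart from the other sham libraries. Mitochondrial genes took 9.87% of its counts, against 2.41% to 3.11% in the other sham libraries, and its chi-square per degree of freedom against them was 279 to 324, against 25 to 39.3 among them. The castration comparison without it called 6 members, as with it. The 8 adrenal medulla markers all fell in cKO glands of every age and sex. A few libraries held liver transcripts, and the summed level of 5 liver markers was highest in female 12-week cKO replicate 2, at 340 CPM. What a library number stands for was not stated in the labels; in the males, 3 of 4 controls at 4 weeks and all 4 controls at 6 weeks had library numbers above 24, while all cKO libraries of those ages had lower numbers. At 6 weeks library number and genotype therefore cannot be told apart.

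Across the family, cKO glands of 6- and 9-week females had more Mmp12 and less Mmp2, Timp2 and Timp3, and cKO glands of males had more Mmp12 and Mmp13 at 6 and 9 weeks. In bulk tissue, fewer cells of a type and less RNA per cell cannot be told apart. A gene was called where its Benjamini-Hochberg adjusted p in edgeR's quasi-likelihood test across all genes was under 0.05. In females 2 of 10 members were called higher and 3 lower in cKO glands at 6 weeks, where 14.2% and 19.1% of all genes tested were called higher and lower. At 9 weeks 3 of 10 were higher and 3 lower, where 14.6% and 20% of all genes were higher and lower. At 12 weeks 2 of 10 were higher and 1 lower, where 9.11% and 16% of all genes were. Of the 2 higher, Mmp8 passed the low-count filter only through cKO libraries. Without cKO replicate 2, the library with most liver transcripts, 5 members were called at 12 weeks, since Mmp13 (log2 0.91; adjusted p = 0.0237) and Timp2 (log2 -0.40; adjusted p = 0.0286) then passed. In males, 8 members passed the low-count filter. At 4 weeks 0 were called higher and 2 lower, with 2 of the 8 at an unadjusted p under 0.05, where 6.29% and 12.9% of all genes were called higher and lower. At 6 weeks 3 were higher and 2 lower, against 8.19% and 11.9% of all genes. At 9 weeks 3 were higher and 1 lower, against 10.4% and 13.6% of all genes. In castrated against sham cKO glands 0 of 8 were called higher and 6 lower, with 6 at an unadjusted p under 0.05, where 19.8% and 23.8% of all genes were called higher and lower. The median log2 fold change of the tested members was -1.82 in that comparison, against -0.01 over all genes tested, and between -0.20 and 0.28 in the cKO comparisons, against -0.02 to 0.01 over all genes.

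**Figure D1:**
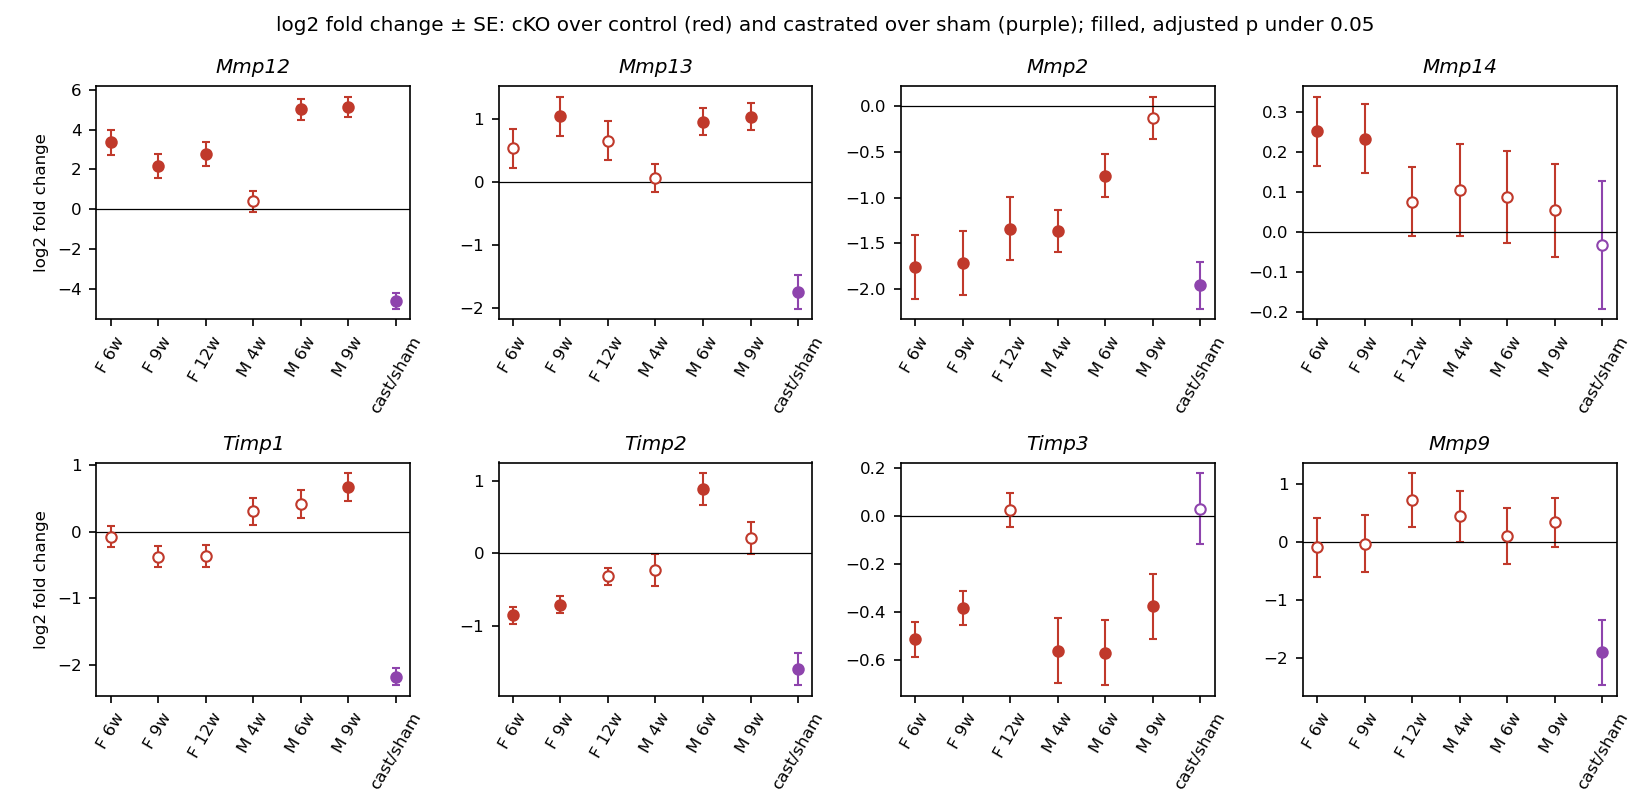
Log2 fold change with its standard error (vertical axis, a scale per panel) for the 8 members that were tested in every comparison. Red points are cKO over control in females (F) and males (M) by age, purple points castrated over sham in 9-week male cKO mice, and filled points have an adjusted p under 0.05. Mmp12 reached 5.13 in 9-week males and -4.59 with castration, while Mmp14 and Timp3 stayed within 0.6 of 0 throughout.

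Mmp12, the macrophage metalloelastase, had the largest fold change of any tested member in every cKO comparison except that of 4-week males. At 6 weeks, female cKO glands held 18.1, 27, 42.3 and 164 CPM, against 5.09, 7.84, 4.97 and 6.59 CPM in control glands. Each cKO value was above each control value, and replicate 4 stood far above the other cKO glands. The log2 fold change was 3.36 ± 0.64 (SE, n = 4 each; adjusted p = 0.000261), or 10.3-fold, and 2.25 (adjusted p = 0.00188) without replicate 4. At 9 weeks, female cKO glands held 79.0, 88.3, 17.3 and 69.7 CPM, against 9.55, 19, 17.3 and 9.88 CPM in control glands. Replicate 3 of the cKO lay within the control range, and the difference of 4.58-fold passed the test (log2 2.20 ± 0.60; adjusted p = 0.00669). At 12 weeks, female cKO glands held 89.6, 265, 138 and 195 CPM, against 10.2, 25.5, 16.5 and 47.7 CPM in control glands. The groups did not overlap, and the difference was 6.87-fold (log2 2.78 ± 0.60; adjusted p = 0.00149). The cKO effect did not differ detectably between 12 and 6 weeks (difference of log2 fold changes -0.58 ± 0.83; adjusted p = 0.866), and without 6-week cKO replicate 4 that difference was 0.53.

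In males Mmp12 was low in both genotypes at 4 weeks and high in cKO glands from 6 weeks. At 4 weeks, male cKO glands held 7.34, 10.7, 4.51 and 7.44 CPM, against 7.69, 2.71, 3.61 and 8.35 CPM in control glands. The groups overlapped and no difference was detected (log2 0.41 ± 0.53; adjusted p = 0.648). At 6 weeks, male cKO glands held 380, 455, 96.1 and 284 CPM, against 10.6, 6.80, 9.31 and 11 CPM in control glands. Even the lowest cKO gland was well above the highest control gland, and the difference was 32.1-fold (log2 5.01 ± 0.53; adjusted p = 2.44e-07). With library number range as a covariate the log2 value was 5.73 (adjusted p = 1.58e-06). That covariate was set by 4- and 9-week glands, so this value does not check the 6-week call. At 9 weeks, male cKO glands held 149, 464, 674 and 1055 CPM, against 13.6, 11.6, 24.1 and 17.4 CPM in control glands. This was a 35-fold difference (log2 5.13 ± 0.52; adjusted p = 2.78e-07), with a wide spread among the cKO glands. The cKO effect was larger at 9 than at 4 weeks by 4.72 ± 0.72 on the log2 scale (adjusted p = 0.00311). Between 4 and 6 weeks Mmp12 rose 40.3-fold in cKO glands (log2 5.33 ± 0.54; adjusted p = 1.81e-05), while in control glands the change was 0.74 ± 0.53 (adjusted p = 0.515). These age comparisons share their groups with the genotype comparisons.

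Mmp12 was lower after castration in 9-week male cKO glands. Castrated glands held 7.48, 32.7, 18 and 19.6 CPM, against 401, 488, 589 and 398 CPM in sham glands. The highest castrated gland was far below the lowest sham gland, and the difference was 24.1-fold lower (log2 -4.59 ± 0.39; adjusted p = 1.15e-05). Among 9-week cKO effects, that of males exceeded that of females by 2.92 ± 0.72 on the log2 scale (adjusted p = 0.022). At 6 weeks the male excess was 1.62 ± 0.83 (adjusted p = 0.26), and it passed the test, at 2.74 (adjusted p = 0.00877), without female cKO replicate 4. Sexes were counted in separate tables, so their genotype effects and not their levels were set against each other.

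**Figure D2:**
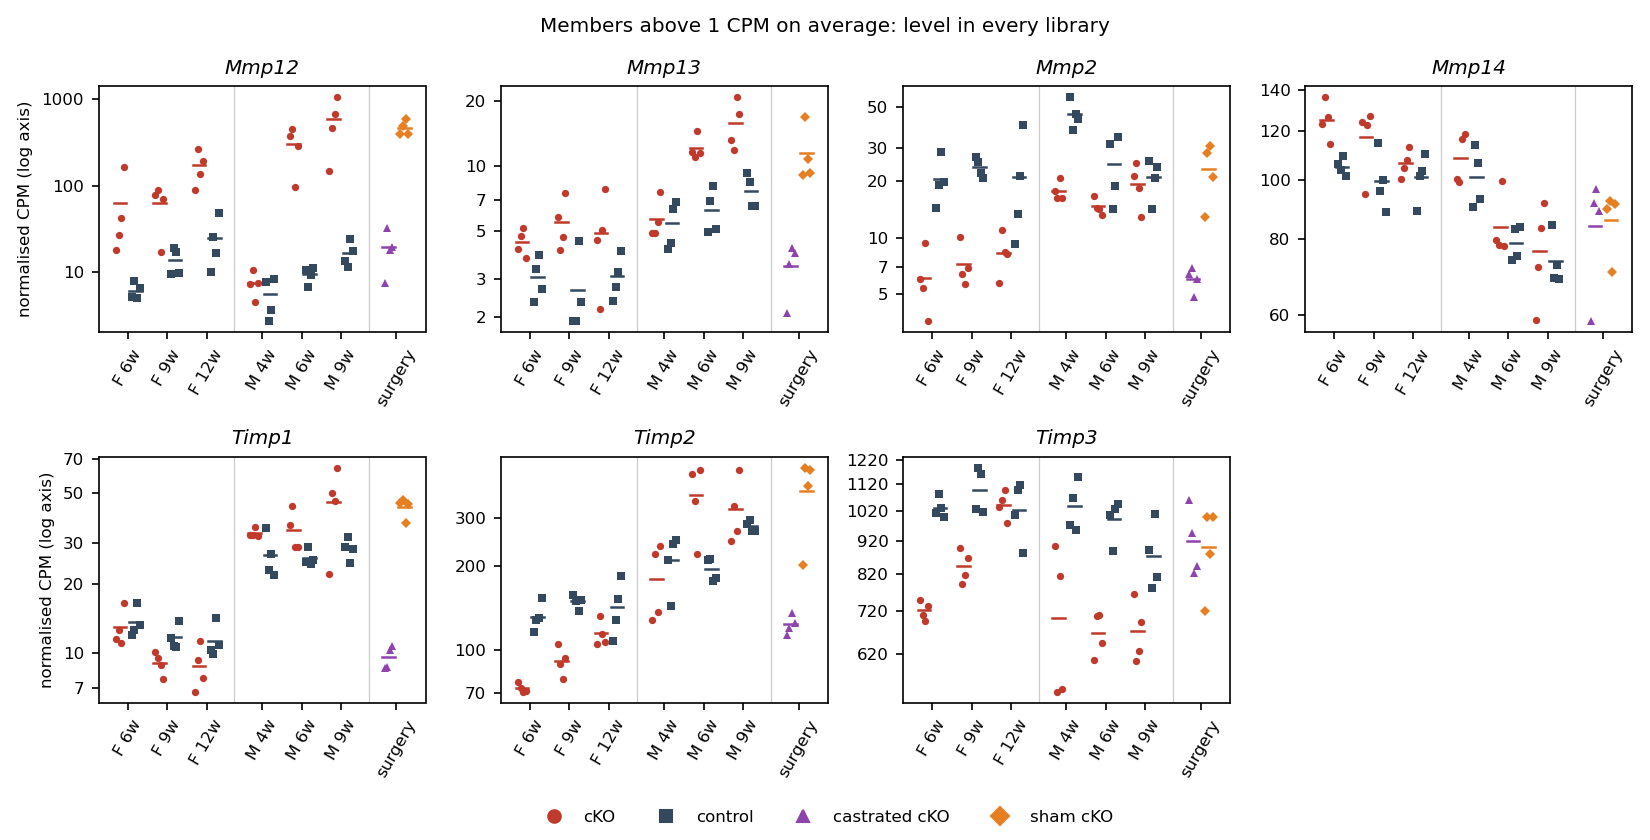
Normalised CPM (vertical log axis, a scale per panel) of the 7 members that averaged above 1 CPM, by sex (F, M) and age in weeks and in the surgery series. Each point is a gland and each bar a group mean; vertical lines separate the 3 count tables, which were normalised separately. Mmp12 in male cKO glands lay at 4.51 to 10.7 CPM at 4 weeks and at 96.1 to 455 CPM at 6 weeks, and castrated cKO glands lay below sham cKO glands for Mmp12, Mmp13, Mmp2, Timp1 and Timp2.

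Macrophage markers moved with Mmp12. Of 17 markers, 8 rose and 1 fell in female cKO glands at 6 weeks, 11 and 0 at 9 weeks and 8 and 0 at 12 weeks. In male cKO glands 1 rose and 1 fell at 4 weeks, 10 and 1 at 6 weeks and 12 and 0 at 9 weeks. With castration, 14 of the 17 fell and 0 rose. Their summed level was 521 to 813 CPM in castrated glands, against 2103 to 3458 CPM in sham glands, and none of the 17 was at 0 in any library. In 9-week males the sum was 1161 to 5950 CPM in cKO glands, against 529 to 661 CPM in control glands. In 12-week females it was 1047 to 1819 CPM in cKO glands, against 415 to 640 CPM in control glands. In 4-week males, where Mmp12 was not called, it was 329 to 823 CPM in cKO glands, against 288 to 462 CPM in control glands. A ratio of Mmp12 to the marker sum was formed after these levels had been seen. Mmp12 amounted to 2.77 ± 1.41% of the sum in castrated glands, against 16.5 ± 2.86% in sham glands (SD, n = 4 each). For castrated against sham glands, and in 6-week males, the ranges of Mmp12 and of the sum already kept the shares apart. A test adds no separate support there. The ratio was lower in castrated glands, without overlap (2-sided exact permutation test, p = 0.0286, the smallest that 4 against 4 allows; 0.04 adjusted over 7 comparisons). In 9-week males it was 19.2 ± 6.66% in cKO glands, against 2.90 ± 1.10% in control glands, and in 4-week males 1.39 ± 0.58% in cKO glands, against 1.35 ± 0.53% in control glands (exact permutation test, p = 0.0286 and p = 0.971; 0.04 and 0.971 adjusted). It was 14.4 ± 2.98% in cKO glands of 6-week males, against 2.04 ± 0.47% in control glands, and passed at the same p there and in 6- and 12-week females. In 9-week females the difference was not detectable, at 6.62 ± 2.58% in cKO glands against 3.46 ± 0.98% in control glands (exact permutation test, p = 0.0857; 0.1 adjusted).

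**Figure D3:**
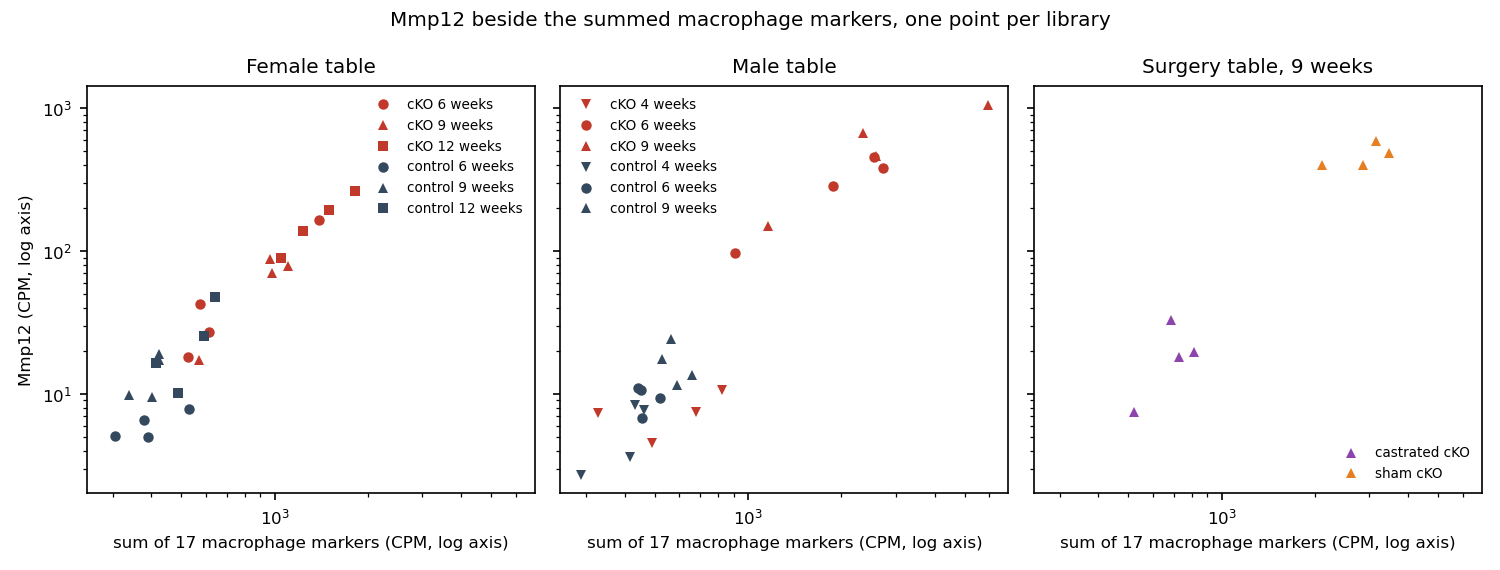
Mmp12 (vertical log axis, CPM) against the summed level of 17 macrophage markers (horizontal log axis, CPM), 1 point per gland, in the 3 count tables. Castrated cKO glands have marker sums of 521 to 813 CPM with Mmp12 at 7.48 to 32.7 CPM, and sham cKO glands marker sums of 2103 to 3458 CPM with Mmp12 at 398 to 589 CPM.

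Within groups, the genes whose levels followed Mmp12 most closely were Itgax, Lgals3, Anpep, Acp5 and Cyba. Their mean Pearson r over females and males was 0.88 to 0.91, from log2 CPM deviations from group means over 24 libraries in each table, among 12988 genes. These libraries share their depth and tissue makeup, and the values are a description. Itgax encodes the CD11c integrin, Lgals3 galectin-3, Anpep aminopeptidase N, Acp5 tartrate-resistant acid phosphatase and Cyba a subunit of the phagocyte NADPH oxidase. Lgals3 is also on the macrophage list. Acp5 is also on a list of 7 markers of multinucleated giant cells and osteoclasts, of which 5 were tested and 5 fell with castration, at a summed 17.8 to 25.8 CPM in castrated glands, against 204 to 264 CPM in sham glands. Their part in the Mmp12 difference was not tested.

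The collagenase Mmp13 rose to a smaller extent. Male cKO glands at 6 weeks held 11.7, 11, 14.6 and 11.5 CPM, against 4.95, 6.93, 8.10 and 5.12 CPM in control glands. At 9 weeks, male cKO glands held 13.2, 12.0, 20.9 and 17.6 CPM, against 9.34, 8.50, 6.56 and 6.54 CPM in control glands. The genotypes did not overlap at either age, and Mmp13 was 1.95-fold higher at 6 weeks (log2 0.96 ± 0.22; adjusted p = 0.00226) and 2.06-fold higher at 9 weeks (log2 1.04 ± 0.21; adjusted p = 0.000896). Among libraries numbered up to 24, which leaves 2 glands a group, the 9-week value was 0.50 and did not pass (adjusted p = 0.248). At 4 weeks the log2 difference was 0.07 ± 0.22 (adjusted p = 0.876). In females Mmp13 rose 2.07-fold at 9 weeks, to 5.55 ± 1.51 CPM in cKO glands, against 2.68 ± 1.25 CPM in control glands (adjusted p = 0.0119). The groups overlapped there, with the highest control gland at 4.52 CPM and the lowest cKO gland at 4.11 CPM. With 1 gland left out the adjusted p was up to 0.0483. At 6 and 12 weeks the female log2 differences of 0.54 ± 0.31 and 0.66 ± 0.31 did not pass (adjusted p = 0.193 and 0.127). Castrated glands held 2.10, 3.53, 4.21 and 3.97 CPM, against 9.17, 16.9, 10.8 and 9.38 CPM in sham glands. Every castrated value was below every sham value, a 3.34-fold lower level (log2 -1.74 ± 0.27; adjusted p = 0.000522).

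The other members of the chromosome 9 cluster, the neutrophil collagenase Mmp8 and the stromelysin Mmp3, which degrades proteoglycans and can activate other proMMPs, were near the detection limit. In females at 12 weeks Mmp8 had counts of 6, 39, 27 and 19 in cKO glands, against 2, 2, 0 and 10 in control glands. The groups overlapped, and Mmp8 was called higher in cKO glands (log2 2.77 ± 0.78; adjusted p = 0.0112). Over 13 alternatives the log2 value was 2.32 to 4.01 (adjusted p up to 0.0433), highest without control replicate 4. Only cKO libraries reached the Mmp8 level that the female low-count filter asks for. Its cKO levels therefore decided that it was tested, and the call is not independent of the filter. The highest cKO count, 39, was in replicate 2, the library with most liver transcripts. Of 7 tested neutrophil markers 0 were called in 12-week females. The summed level of the 12 listed was 5.22 to 21.8 CPM in cKO glands, against 4.02 to 26.3 CPM in control glands. Up to 2 and 5 of them were at 0 in a library. Mmp8 and Mmp3 did not pass the low-count filter in males or the surgery series. In the surgery series Mmp8 had counts of 2, 0, 0 and 1 in castrated glands, against 4, 21, 20 and 36 in sham glands. The groups did not overlap, and a fit with no low-count filter gave an adjusted p of 0.000723. The summed neutrophil markers were 2.64 to 8.37 CPM in castrated glands, against 10.6 to 18.3 CPM in sham glands, and their part in the Mmp8 difference was not tested. Mmp3 had counts of 4, 7, 26 and 11 in 9-week male cKO glands, against 5, 0, 2 and 2 in control glands; the groups overlapped, and its adjusted p in the fit with no filter was 0.0466. In females Mmp3 was called at no age, with log2 values between -0.52 and 0.28.

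**Figure D4:**
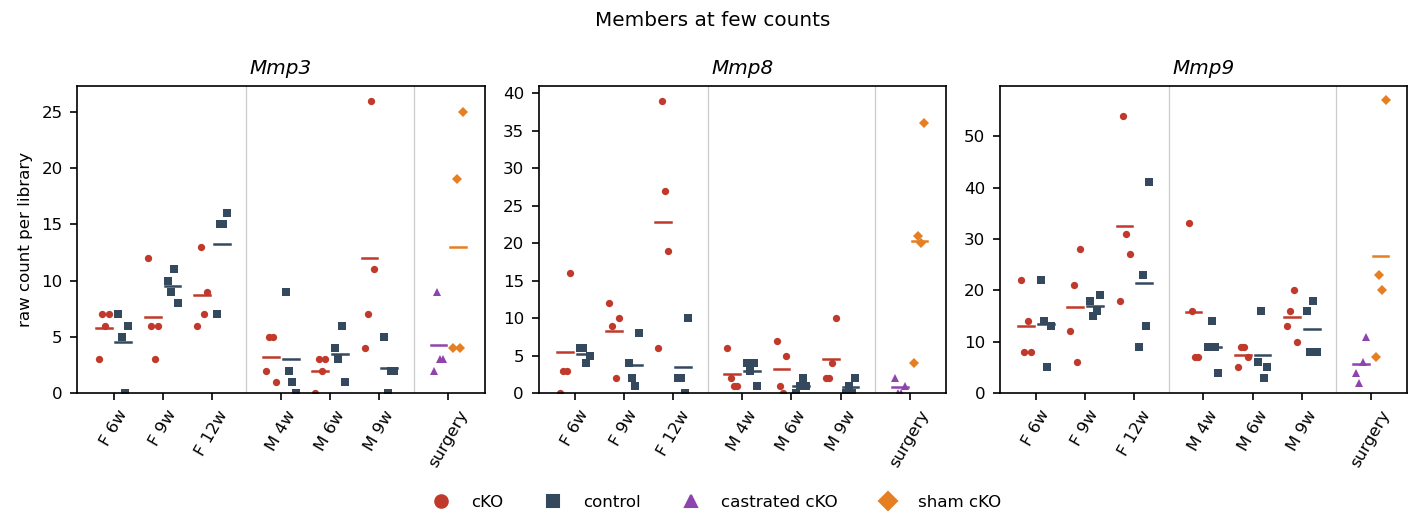
Raw counts per library (vertical axis, from 0) of the 3 members near the detection limit, by sex (F, M) and age in weeks and in the surgery series; points are glands and bars group means. Mmp8 reached 39 counts in 12-week female cKO glands and stayed at 2 or fewer in castrated glands, against 4 to 36 in sham glands.

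Mmp2, a gelatinase made mainly by stromal cells, fell in cKO glands of females at each age. At 6 weeks, female cKO glands held 6.02, 5.38, 9.39 and 3.57 CPM, against 14.3, 19.1, 28.8 and 19.8 CPM in control glands. At 9 weeks, female cKO glands held 10.03, 6.42, 5.62 and 6.92 CPM, against 26.9, 25.2, 22.2 and 20.9 CPM in control glands. The genotypes did not overlap at either age, and Mmp2 was 3.37-fold lower at 6 weeks (log2 -1.75 ± 0.35; adjusted p = 0.000439) and 3.28-fold lower at 9 weeks (log2 -1.72 ± 0.35; adjusted p = 0.000546). At 12 weeks it was 5.73, 10.9, 8.34 and 8.13 CPM in cKO glands, against 9.19, 13.4, 21.2 and 40.0 CPM in control glands. The groups overlapped there, and the call (log2 -1.34 ± 0.35; adjusted p = 0.00605) was lost without control replicate 4 (log2 -0.82; adjusted p = 0.0538).

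In males Mmp2 fell at 4 and 6 weeks. At 4 weeks male cKO glands held 17.8, 16.2, 20.9 and 16.3 CPM, against 56.3, 37.8, 45.6 and 43.1 CPM in control glands, 2.57-fold lower without overlap (log2 -1.36 ± 0.23; adjusted p = 0.000128). At 6 weeks the log2 value was -0.76 ± 0.24 (adjusted p = 0.024), with 14.7 ± 1.46 CPM in cKO glands and 24.8 ± 9.85 CPM in control glands. That call was lost in a fit to those groups alone (adjusted p = 0.0528) and without any of 5 single glands, at an adjusted p of up to 0.118. At 9 weeks it was -0.12 ± 0.23 (adjusted p = 0.738), with 19.4 ± 5.15 CPM in cKO glands and 21.1 ± 4.98 CPM in control glands. The cKO effect at 9 weeks was 1.24 ± 0.32 above that at 4 weeks on the log2 scale (adjusted p = 0.0333), a call lost with library number range as a covariate (adjusted p = 0.0694) and without any of 6 single glands. Of 12 fibroblast and capsule markers, 7, 9 and 8 fell and 0 rose in female cKO glands at 6, 9 and 12 weeks. In male cKO glands 8 fell and 0 rose at 4 weeks, 7 fell and 1 rose at 6 weeks and 4 fell and 0 rose at 9 weeks, and no marker of the list was at 0 in any library. Their part in the Mmp2 differences was not tested. At 9 weeks the cKO effect was also less negative in males than in females, by 1.58 ± 0.30 (adjusted p = 0.00653).

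After castration Mmp2 was lower, at 6.38, 6.84, 4.78 and 5.99 CPM in castrated glands, against 12.9, 28.3, 30.8 and 21.1 CPM in sham glands. The groups did not overlap, and the level was 3.89-fold lower (log2 -1.96 ± 0.25; adjusted p = 0.000172), or -2.16 on the log2 scale (adjusted p = 8.09e-06) without sham replicate 1, which was again the lowest sham gland. All 12 fibroblast and capsule markers fell with castration too, to a summed 394 to 504 CPM in castrated glands, against 969 to 1103 CPM in sham glands. Mmp2 amounted to 1.3 ± 0.11% of that sum in castrated glands, against 2.25 ± 0.83% in sham glands (2-sided exact permutation test, p = 0.0571; 0.133 adjusted over 7 comparisons). In 6- and 9-week females this share was 1.24 ± 0.22% and 1.58 ± 0.32% in cKO glands, against 2.22 ± 0.50% and 2.49 ± 0.17% in control glands. The genotypes did not overlap at either age (exact permutation test, p = 0.0286 each, the smallest that 4 against 4 allows). With 2 of 7 comparisons at that p, the adjusted value could not be below 0.1. The genotypes overlapped in the other cKO comparisons. In 12-week females the mean share was 1.68% in cKO and 2.43% in control glands (exact permutation test, p = 0.114). In males it was 2.25% in cKO and 3.12% in control glands at 4 weeks (exact permutation test, p = 0.114). At 6 weeks it was 1.82% in cKO and 2.14% in control males (exact permutation test, p = 0.571). At 9 weeks it was 2.12% in cKO and 1.96% in control males (exact permutation test, p = 0.743). Mmp9, the other gelatinase, made by myeloid cells, was called in no cKO comparison, with log2 values from -0.09 to 0.72. Castrated glands had 4, 2, 6 and 11 counts of Mmp9, against 7, 23, 20 and 57 in sham glands, log2 -1.91 ± 0.57 (adjusted p = 0.0192). The groups overlapped, and the call was lost without castrated replicate 2 (adjusted p = 0.0525) or sham replicate 4 (adjusted p = 0.0657).

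Mmp14, the membrane-anchored MT1-MMP that activates proMMP2 on the cell surface, had the highest mean CPM per kb of exon of the 7 proteases in each of the 6 control groups, and its differences were small. It was called 1.19-fold and 1.18-fold higher in cKO glands of females at 6 and 9 weeks (adjusted p = 0.0285 and 0.041). At 6 weeks the values were 123, 136, 127 and 114 CPM in cKO glands, against 106, 104, 109 and 101 CPM in control glands. Those values did not overlap, but the call was lost without any of 5 single glands at 6 weeks and 6 at 9 weeks (adjusted p up to 0.0723 and 0.14). Castrated glands held 84.0 ± 17.1 CPM, against 85.9 ± 10.2 CPM in sham glands (log2 -0.03 ± 0.16; adjusted p = 0.887). Between 4 and 6 weeks Mmp14 fell 1.29-fold in male cKO glands (log2 -0.37 ± 0.12; adjusted p = 0.0304), a call lost without any of 5 single glands, and the value in control glands was -0.35 ± 0.12 (adjusted p = 0.154).

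Timp2, a secreted inhibitor that also takes part in the activation of proMMP2 by MT1-MMP, fell in 6- and 9-week cKO females and rose in 6-week cKO males. Female cKO glands at 6 weeks held 76.3, 72.6, 70.7 and 71.3 CPM, against 116, 128, 130 and 153 CPM in control glands. At 9 weeks the values were 105, 89.0, 78.5 and 93.1 CPM in cKO glands, against 158, 151, 138 and 152 CPM in control glands. The genotypes did not overlap, and Timp2 was 1.81-fold lower at 6 weeks (log2 -0.86 ± 0.12; adjusted p = 8.36e-06) and 1.64-fold lower at 9 weeks (log2 -0.71 ± 0.12; adjusted p = 9.14e-05). At 12 weeks the log2 value was -0.32 ± 0.12 (adjusted p = 0.0577), and it passed without cKO replicate 2, control replicate 1 or control replicate 2 (adjusted p down to 0.00633). In males at 6 weeks, cKO glands held 430, 345, 222 and 445 CPM, against 210, 212, 177 and 182 CPM in control glands. Each cKO value was higher, by 1.84-fold in the fit (log2 0.88 ± 0.22; adjusted p = 0.00571). The log2 values at 4 and 9 weeks were -0.23 ± 0.22 and 0.21 ± 0.22 (adjusted p = 0.513 and 0.524). The male cKO effect exceeded the female one by 1.73 ± 0.22 at 6 weeks (adjusted p = 0.000343) and by 0.91 ± 0.20 at 9 weeks (adjusted p = 0.013). Male genotype and library number cannot be told apart at 6 weeks, a limit on both the male rise and the sex difference there. Castrated glands held 113, 120, 136 and 125 CPM, against 203, 454, 390 and 447 CPM in sham glands, 3.02-fold lower without overlap (log2 -1.60 ± 0.22; adjusted p = 0.00028). The lowest sham value is from replicate 1, which stood apart in its mitochondrial share, and without it the log2 value was -1.80 (adjusted p = 9.83e-07).

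Timp1, the inducible inhibitor, fell with castration. Castrated glands held 8.55, 8.68, 10.3 and 10.7 CPM, against 45.0, 46.4, 37.0 and 44.6 CPM in sham glands. The groups were tight and far apart, and Timp1 was 4.51-fold lower (log2 -2.18 ± 0.13; adjusted p = 1.19e-06). On the same CPM scale the summed adrenal cortex markers were 68650 to 78840 CPM in castrated glands, against 26830 to 39500 CPM in sham glands. The summed macrophage markers were 521 to 813 CPM, against 2103 to 3458 CPM. The part of this change in tissue makeup in the Timp1 difference was not tested. In 9-week males, cKO glands held 22.1, 49.6, 46.0 and 64.1 CPM, against 28.9, 32.1, 24.6 and 28.3 CPM in control glands. One cKO gland lay below all control glands, and the 1.59-fold difference (log2 0.67 ± 0.21; adjusted p = 0.0209) was lost in a fit to those groups alone (adjusted p = 0.0852) and without cKO replicate 2 or 4 or control replicate 3 (adjusted p up to 0.106). Among libraries numbered up to 24 it was 0.23 (adjusted p = 0.714). In females Timp1 was called at no age, with log2 values from -0.37 to -0.07. The cKO effect at 9 weeks was higher in males than in females by 1.03 ± 0.30 (adjusted p = 0.0451), a call lost in nearly every fit that left out 1 gland (adjusted p up to 0.0909). Within groups the genes most like Timp1 were Fxyd5, Atp6v1f, Txn1, Ftl1 and Mpp1, at a mean r of 0.72 to 0.75 over the same libraries. Timp1 lies on the opposite strand inside Syn1, with 0 exon bases shared, and the sources used here do not state whether counting used strand. Syn1, a neuronal synapsin, fell in all 7 comparisons, by 2.19 ± 0.23 on the log2 scale with castration (adjusted p = 4.51e-05), and its part in the Timp1 count was not tested.

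Timp3, which is bound to the extracellular matrix, had the highest mean CPM per kb of exon of the 3 inhibitors in every group except 6- and 9-week male cKO glands, where Timp2 was level with it or above. In 6-week females, cKO glands held 749, 712, 697 and 734 CPM, against 1013, 1082, 1033 and 999 CPM in control glands. At 12 weeks the values were 1035, 1061, 1100 and 981 CPM in cKO glands, against 1008, 1098, 1116 and 882 CPM in control glands. Timp3 was 1.43-fold lower without overlap at 6 weeks (log2 -0.51 ± 0.07; adjusted p = 6.28e-06), 1.3-fold lower at 9 weeks (log2 -0.38 ± 0.07; adjusted p = 0.000225) and not different at 12 weeks within this error (log2 0.03 ± 0.07; adjusted p = 0.837). The change of the cKO effect between 6 and 12 weeks was 0.54 ± 0.10 (adjusted p = 0.0239), and that call was lost without any of 4 single glands (adjusted p up to 0.0689). In males Timp3 fell at 4, 6 and 9 weeks, by 0.56 ± 0.14, 0.57 ± 0.14 and 0.38 ± 0.14 on the log2 scale (adjusted p = 0.00452, 0.0038 and 0.0457). The call was lost at 4 weeks in a fit to those groups alone (log2 -0.55; adjusted p = 0.0522) and among libraries numbered up to 24, which leaves 1 control gland (log2 -0.47; adjusted p = 0.446). It was also lost at 6 weeks with library number range as a covariate (log2 -0.51; adjusted p = 0.0823) and at 9 weeks under 12 of 16 alternatives (log2 -0.45 to -0.29 over the 16; adjusted p up to 0.532). Castrated glands held 919 ± 109 CPM, against 901 ± 133 CPM in sham glands (log2 0.03 ± 0.15; adjusted p = 0.889), and without sham replicate 1, the lowest of the sham glands, the log2 value was -0.06 (adjusted p = 0.669). Timp3 lies inside Syn3 on the opposite strand and shares 1733 of its 8144 exon bases with it. Syn3 fell in cKO females at 6 weeks (log2 -0.60 ± 0.20; adjusted p = 0.0228) and at 9 weeks (log2 -0.66 ± 0.20; adjusted p = 0.0134). In cKO males, where Timp3 fell, Syn3 was not called. Its log2 values were -0.47, -0.11 and 0.20 at 4, 6 and 9 weeks (adjusted p = 0.305, 0.841 and 0.674). In 6-week females Syn3 averaged 1.68 CPM in cKO and 2.56 CPM in control glands, against 723 and 1032 CPM for Timp3. The part of Syn3 in the Timp3 values was not tested.

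Endothelial markers were compared beside Timp2 and Timp3. In female cKO glands 7 of 8 endothelial markers fell and 1 rose at 6 and at 9 weeks, and 3 fell and 1 rose at 12 weeks. Their summed level was 808 to 898 CPM in cKO glands, against 913 to 1007 CPM in control glands, at 6 weeks. It was 862 to 931 CPM in cKO glands, against 996 to 1151 CPM in control glands, at 9 weeks. At 12 weeks, when neither Timp2 nor Timp3 was called, it was 976 to 1026 CPM in cKO glands, against 970 to 1055 CPM in control glands. In male cKO glands 3 of 8 fell and 0 rose at 4 weeks, 4 rose and 0 fell at 6 weeks and 2 rose and 0 fell at 9 weeks. In 6-week males, where Timp2 rose and Timp3 fell, the sum was 1536 to 1760 CPM in cKO glands, against 1056 to 1289 CPM in control glands. With castration 7 of 8 fell and 0 rose, at 859 to 935 CPM in castrated glands, against 1079 to 1477 CPM in sham glands, where Timp2 fell and Timp3 was not called. None of the 8 was at 0 in any library, and their part in the Timp2 and Timp3 values was not tested.

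Age comparisons within a genotype changed few members outside 4- to 6-week cKO males, where 4 of 8 were called, with 16.6% of all genes called. Mmp12 rose, Mmp13 rose 2.14-fold (log2 1.10 ± 0.22; adjusted p = 0.00265), Timp2 rose 2.00-fold (log2 1.00 ± 0.22; adjusted p = 0.00503) and Mmp14 fell. In edgeR's test 0 of 10 members were called between 6 and 9 weeks in female cKO glands, where 1.75% of all genes were called, with 3 members at an unadjusted p under 0.05 and 1 called by DESeq2. Between 9 and 12 weeks 0 were called in female cKO glands, where 0% of all genes were, with 4 at an unadjusted p under 0.05 and 1 called by DESeq2. Female control glands had 0 called in both intervals, where 0% of all genes were called, with 1 and 0 members at an unadjusted p under 0.05 and 0 called by DESeq2. In male control glands 0 of 8 were called between 4 and 6 weeks, where 0.0702% of all genes were called, with 2 at an unadjusted p under 0.05 and 1 called by DESeq2. Between 6 and 9 weeks 0 of 8 were called in male cKO glands and 0 in male control glands, where 0.761% and 0% of all genes were called, with 1 member each at an unadjusted p under 0.05 and 0 called by DESeq2. The change of the cKO effect over age was called for 1 of 10 members in females and 2 of 8 in males, where 0.322% and 4.92% of all genes were called. The difference between the cKO effects of males and females was called for 1 of 8 members at 6 weeks and 4 of 8 at 9 weeks, where 7.63% and 8.68% of all genes were called.

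Set on exon length, the balance of proteases and inhibitors is described by sums of transcript levels, with no test. The shares depend on the exon length used for each gene. This was 7.237 kb for Mmp12 and 1.801, 2.425 and 2.673 kb for Mmp3, Mmp8 and Mmp13. Mmp14 made up 70.8 ± 3.66% of the summed CPM per kb of the 7 proteases in castrated glands, against 16.2 ± 3.79% in sham glands. Mmp12 made up 12.8 ± 4.87% in castrated glands, against 70.9 ± 3.76% in sham glands. Among the inhibitors Timp3 made up 72.5 ± 3.89% of the summed CPM per kb in castrated glands, against 43.6 ± 1.84% in sham glands. The protease sum was 13 ± 3.30% of the inhibitor sum in castrated glands, against 36.4 ± 6.70% in sham glands. It was 47.3 ± 19% in 9-week male cKO glands, against 11.4 ± 1.18% in control glands, and at 4 weeks 15.9 ± 1.47% in cKO glands, against 15.9 ± 1.31% in control glands (SD, n = 4 each). In females it was 24% to 27.8% in cKO glands as group means, against 14.5% to 16.1% in control glands.

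Of 16 other MMPs listed, 10 were tested, and in cKO glands of females 1 rose and 5 fell at 6 weeks, 1 and 6 at 9 weeks and 1 and 4 at 12 weeks. Mmp16, a membrane-type protease, fell at every age of both sexes, by 2.68 ± 0.32 on the log2 scale in 6-week females (adjusted p = 9.59e-07) and by 3.05 ± 0.45 in 6-week males (adjusted p = 2.22e-05). Mmp19 rose in each of the 6 cKO comparisons, by 0.70 ± 0.08 in 6-week females (adjusted p = 4.48e-07). In males 1 rose and 4 fell at 4 weeks, 2 and 2 at 6 weeks and 3 and 3 at 9 weeks. With castration 1 of 10 rose and 6 fell, among them Mmp11 (log2 -0.98 ± 0.11; adjusted p = 6.04e-05).

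Genes on a list of further MMP inhibitors and related proteins, Spock1, Spock2 and Spock3 among them, fell in cKO glands. Of 7 listed, 5, 5 and 4 fell in female cKO glands at 6, 9 and 12 weeks and 4 of 6 tested fell in male cKO glands at each age, and 0 rose. With castration 4 of 7 fell and 0 rose. Reck, a membrane-anchored MMP inhibitor, fell by 1.45 ± 0.17 on the log2 scale in 6-week females (adjusted p = 4.05e-07) and by 1.36 ± 0.18 with castration (adjusted p = 0.000185). Spock1, Spock2 and Spock3, the testican proteoglycans, fell in every cKO comparison, Spock1 by 3.83 ± 0.34 in 6-week females (adjusted p = 1.37e-08). These testicans are also expressed in neural tissue, and the medulla markers fell in the same comparisons; their part in the testican values was not tested.

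The plasminogen system, which can start proMMP activation, includes Plau, urokinase, and Plaur, its receptor. Plau rose in male cKO glands by 0.96 ± 0.23, 1.75 ± 0.23 and 1.38 ± 0.22 on the log2 scale at 4, 6 and 9 weeks (adjusted p = 0.00403, 5.5e-06 and 9.12e-05). Of 9 genes of this list tested in males, 1 rose and 1 fell at 4 weeks and 2 rose and 0 fell at 6 and at 9 weeks. Of 11 tested in females, 1 rose and 2 fell at 6 weeks, 1 and 3 at 9 weeks and 2 and 0 at 12 weeks. The female 12-week calls were Plg and Serpinf2, both made by liver, and 422 of 438 cKO counts of Plg and 133 of 146 of Serpinf2 were in replicate 2, whose summed liver markers were 340 CPM. With castration 0 of 9 rose and 4 fell, among them Plaur (log2 -1.74 ± 0.16; adjusted p = 2.36e-05).

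Adam8, a membrane protease of leukocytes, rose in 6- and 9-week cKO males by 2.48 ± 0.40 and 3.11 ± 0.40 on the log2 scale (adjusted p = 6.25e-05 and 4.78e-06) and fell with castration by 3.49 ± 0.20 (adjusted p = 1.21e-06). Of 13 ADAM and ADAMTS genes, 1 rose and 4 fell in female cKO glands at 6 weeks, 0 and 5 at 9 weeks and 2 and 6 at 12 weeks. In male cKO glands 0 rose and 2 fell at 4 weeks, and 2 rose and 0 fell at 6 and at 9 weeks. With castration 0 rose and 4 fell. Of 8 lysosomal and related proteases of macrophages, 7 rose and 0 fell in 9-week cKO males and 0 rose and 6 fell with castration, among them Ctss, cathepsin S (log2 2.59 ± 0.42, adjusted p = 8.36e-05, and -2.46 ± 0.20, adjusted p = 9.86e-06). In the other cKO comparisons 4 rose and 1 fell in 6-week females, 3 and 2 in 9-week females, 6 and 1 in 12-week females, 1 and 1 in 4-week males and 5 and 0 in 6-week males.

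Of 16 matrix genes, 1 rose and 6 fell in female cKO glands at 6 weeks, 1 and 11 at 9 weeks and 1 and 7 at 12 weeks. In male cKO glands 2 rose and 2 fell at 4 weeks, 2 and 3 at 6 weeks and 1 and 1 at 9 weeks. Col5a1, a fibrillar collagen chain, rose in each of the 6 cKO comparisons, by 0.82 ± 0.16 in 6-week females (adjusted p = 0.000283). With castration 2 rose and 9 fell, among them Dcn, the proteoglycan decorin (log2 -1.72 ± 0.17; adjusted p = 3.84e-05), and Eln, the elastin substrate of Mmp12 (log2 -1.39 ± 0.15; adjusted p = 6.23e-05), while Sparc rose by 1.39 ± 0.16 (adjusted p = 8.23e-05). Dcn, Col1a1 and Col3a1 are also on the fibroblast list. On the same scale adrenal cortex markers rose with castration, 6 of 8 against 1 that fell, at a summed 68650 to 78840 CPM in castrated glands, against 26830 to 39500 CPM in sham glands.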

How the data were processed

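Poly(A) RNA of whole glands was sequenced from directional libraries. The authors deposited raw counts per gene in 3 tables (females, males, surgery series), and the surgery table lists a different set of identifiers. The submitters' processing notes name cutadapt 1.16, STAR 2.7.6a, featureCounts, RSEM 1.6.3, DESeq2 1.30.1 and GRCm38, with no role or order given. Counts near shared or antisense exons can be split or merged by a counting rule that was not stated.

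From the counts, genes were filtered with filterByExpr (minimum count 10), scaled by TMM and tested with edgeR 4.0.16 (quasi-likelihood, R 4.3.3) over all groups of a table, which left 18645, 17086 and 16961 genes in the female, male and surgery tables. Differences between the sexes were fitted to both tables jointly, at each shared age. P-values were Benjamini-Hochberg adjusted over all genes of a comparison, with a threshold of 0.05. Except for ratios, every adjusted p in the text is from this test or a named alternative of it. Single ratios were tested with 2-sided exact permutation tests, whose smallest p for 4 against 4 is 0.0286. Their p-values were Benjamini-Hochberg adjusted over the 7 comparisons of a ratio. CPM per kb used the union of GENCODE M21 exons. Library depth was 12431963 to 51604620 counts, which limits Mmp3, Mmp8 and Mmp9 most.

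The members and gene lists were chosen with earlier results of these data known, and the ratio measures after levels had been seen. All 10 members are described. Other listed genes were named from the at most 4 with the smallest p per list and comparison. Alternatives were DESeq2 1.42.0, relative log expression scaling, no low-count filter, the compared groups alone, a replicate block, library number range, reporter and each gland left out. Promoters were RefSeq sequences (GRCm38.p6), found for 8 of the 10 genes.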

Additional observations from a re-analysis of the deposited data

Results flagged for a closer look

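In 8 of 124 groups examined, 1 library lay apart from the other 3 of its group by a gap test that flags about 1 in 20 groups by chance. Mmp12 in 6-week female cKO replicate 4 was 164 CPM, against 42.3 CPM in the next library. Mmp14 was low in 9-week female cKO replicate 2, at 94.7 CPM with the next at 123 CPM, and in sham replicate 3, at 70.6 CPM with the next at 89.6 CPM. It was high in 6-week male cKO replicate 3, at 99.5 CPM with the next at 79.7 CPM. Timp1 in 4-week male cKO replicate 3 was 35.3 CPM, with the next at 32.6 CPM. Mmp13 in 9-week female control replicate 3 was 4.52 CPM, with the next at 2.36 CPM. Mmp9 in 6-week male control replicate 2 was 0.999 CPM, with the next at 0.328 CPM, and Mmp3 in 12-week female control replicate 1 was 0.193 CPM, with the next at 0.35 CPM.

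The cKO effect differed between ages or sexes for 5 genes by a test of the difference itself in edgeR. For age, 0.322% of all genes were called in females and 4.92% in males. Between the sexes 7.63% were called at 6 weeks and 8.68% at 9 weeks. On the log2 scale the effect was higher at 9 than at 4 weeks in males by 4.723 for Mmp12 (adjusted p = 0.00311) and by 1.237 for Mmp2 (adjusted p = 0.0333). It was higher at 12 than at 6 weeks in females by 0.539 for Timp3 (adjusted p = 0.0239). It was higher in males than in females by 1.726 for Timp2 at 6 weeks (adjusted p = 0.000343). At 9 weeks the male effect was higher by 2.92 for Mmp12, 1.578 for Mmp2, 1.034 for Timp1 and 0.909 for Timp2 (adjusted p = 0.022, 0.00653, 0.0451 and 0.013). The age and sex comparisons share their 6- and 9-week groups. At 6 weeks male genotype and library number cannot be told apart. The call for Timp1 between the sexes was lost under 16 of 20 alternatives. That for Mmp2 between ages in males was lost under 8 of 21, and that for Timp3 in females under 5 of 20. The other calls were lost under none, but for the calls between the sexes no alternative dealt with library number.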

How the results depend on the processing

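Over 43 called member values, 632 values from alternatives kept the direction and the call in 555 cases and lost the call in 77, and 0 changed direction. Of 1793 values for members not called, 17 passed the threshold and 5 reversed by more than their standard error: among libraries numbered up to 24, Timp1 at -0.085 in 4-week males and Mmp14 at -0.229 and Mmp2 at 0.220 in 9-week males; the change of the Mmp12 effect in females (-0.888 to 0.528 with 1 gland left out); and Timp3 between 4 and 6 weeks in cKO males (-0.178 to 0.072). The cause was not tested. DESeq2 called 1 member for 9 against 6 and for 12 against 9 weeks in cKO females and for 6 against 4 weeks in control males. The compared groups alone gave 1 called member in 4-week and 2 in 9-week males, and libraries numbered up to 24 gave 1 and 1, with fewer samples. Library number range as a covariate gave 1 for the change in males. Over all genes, the covariate gave 1701 calls in 4-week and 1613 in 6-week males, against 3275 and 3435 without it, and libraries numbered up to 24 gave 711 in 4-week and 643 in 9-week males, against 3275 and 4110 in all libraries. Leaving out 1 gland gave 2 to 5 called members in 12-week females, 2 to 4 in 9-week males, 0 to 2 for 9 against 6 weeks in cKO males, 0 to 1 and 1 to 3 for the change in females and males, and 1 to 2 for the sexes at 6 weeks.

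Replicate numbers did not pair the samples (r -0.253 to 0.107 over 24 pairs; in 4 pairs the own number correlated best). With a replicate block, 0 members were called for the change in females and 1 for that in males. No paired analysis was possible because the sham libraries share 1 number in the labels, for castrated against sham. Depth limits Mmp3, Mmp8 and Mmp9, which had at most 57 counts in a library.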
